A study of Mus musculus with 194 samples.

Results

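Arc (ENSMUSG00000022602.14, activity-regulated cytoskeleton-associated protein) was 1 of 19363 genes in the count table of a mouse study of cocaine and was picked out by its symbol; the gene was chosen with earlier results of these data known. The study sequenced the 3′ ends of polyadenylated RNA from 5 structures of the reward circuitry: the limbic cortex (LCtx, medial prefrontal and cingulate cortex together), the nucleus accumbens (NAc), the dorsal striatum (DS), the amygdala (Amy) and the lateral hypothalamus (LH). Male C57BL/6OLAHSD mice, 6 to 7 weeks old on arrival, were killed 0, 1, 2 or 4 hr after an intraperitoneal injection of cocaine at 20 mg/kg. Mice given cocaine had first received saline on 3 days of habituation. Whether the cocaine-naive mice killed at 0 hr had received it was not stated. In the acute experience the injection was the first dose. In the repeated experience (labelled Chronic) it was the last of 5 daily doses, and in the challenge experience it followed the repeated treatment and 21 days of abstinence. Challenge mice were thus older when killed than mice of the other experiences, and age and experience cannot be told apart. The 0 hr mice came straight from the home cage: cocaine-naive mice in the acute experience, mice 24 hr after 4 doses in the repeated experience and abstinent mice in the challenge experience. No group received saline in place of cocaine on the test day, so the effect of cocaine and that of injection and handling cannot be told apart.

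Arc is an immediate-early gene of neurons: its transcription starts within minutes of synaptic activity and calcium entry, through MAP kinase signalling and the factors SRF, MEF2 and CREB, without new protein synthesis. Its mRNA is carried into dendrites, is translated near active synapses and is short-lived, in part because splice junctions downstream of the stop codon expose it to nonsense-mediated decay. The protein binds endophilin and dynamin and promotes removal of AMPA-type glutamate receptors from the synapse, enters the nucleus, and descends from the Gag protein of a retrotransposon, whose capsid-like assembly it keeps. In the striatum, dopamine acting on D1 receptors together with glutamate input is a known route to Arc transcription after psychostimulants.

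On GRCm38 (GENCODE M21) Arc lies at chr15:74669083-74672570 on the minus strand, over 3488 bases, with 3 exons. The coding sequence of 1188 bases lies wholly in the first exon (chr15:74671185-74672372), and both introns, of 245 and 186 bases, interrupt the 3′ untranslated region. That region is 1671 bases of a 3055-base mRNA, and a 3′-end library reads its distal part. Whether the strand was used in counting was not given in the sources used here, and 0 annotated genes overlap Arc on either strand. Of the libraries deposited, 1 was used for each mouse and structure, and 28 second libraries of the same samples were kept for comparisons between runs. Libraries held 1193306 to 10367769 counted reads, median 3296647.5, and Arc took 82 to 2725 of them, median 292.5, so no library was near the limit of detection. Levels are CPM, counts scaled to the same total in every library. Tests between times used edgeR's quasi-likelihood F test, with p-values adjusted by the Benjamini-Hochberg method over all genes, and a gene is called at an adjusted p under 0.05 and a fold over 1.2. Replicates are mice, and the p-values refer to the spread between mice.

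The dissections were checked on lists of marker genes, of which none was specific to the Amy. The summed cortical list was at 1363 to 2440.1 CPM in the LCtx, 886 to 1711 CPM in the Amy, 177 to 309.9 CPM in the LH and 148 to 226 CPM in the DS. In the NAc it varied more between libraries, from 154 to 853 CPM. The summed striatal list ran from 12721 to 16991 CPM in the DS and from 6929 to 10991 CPM in the NAc, against 307 to 919 CPM in the LCtx. In the LH, orexin (Hcrt) was at 4159 to 7639.6 CPM and melanin-concentrating hormone (Pmch) at 4323 to 9949 CPM, and their highest values elsewhere were 563 and 1071 CPM. The Amy pieces held 746 to 1692 CPM of the hypothalamic list and 875 to 2026 CPM of the striatal list. In tissue pieces of this kind, fewer cells of a type and less RNA per cell cannot be told apart.

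Before cocaine, Arc stood highest in the DS and LCtx, lower in the NAc and Amy and lowest in the LH. In naive mice the DS held 118, 199.1, 168 and 129 CPM and the LCtx 196, 114 and 129 CPM. The NAc held 91.2, 97.0, 56.8 and 66.6 CPM. The Amy held 60.7 and 55.5 CPM and the LH 45.7 and 29.2 CPM. The ranges of the DS and LCtx overlapped, those of the LCtx and NAc did not, and 1 NAc mouse lay between the Amy mice. Of the steps down this order, the 1 from LCtx to NAc passed the test at 0.96 [SE 0.30, 95% interval 0.37 to 1.54, adjusted p = 0.00611] on the log2 scale, in a fit where 19.6% of genes were called higher in the LCtx. Blood transcripts moved with this step: the summed blood list was at 10503 to 14792 CPM in the naive LCtx and at 322 to 509.6 CPM in the naive NAc, and their part in the result was not tested. The neighbours DS and LCtx (0.087 [SE 0.29, 95% interval -0.49 to 0.66, adjusted p = 0.842]), NAc and Amy (0.41 [SE 0.37, 95% interval -0.32 to 1.15, adjusted p = 0.468]) and Amy and LH (0.60 [SE 0.46, 95% interval -0.31 to 1.499, adjusted p = 0.428]) did not pass in this fit, which does not pair the structures of an animal. Within animal numbers that carry both structures at 0 hr, over the 3 experiences, Arc was higher in the Amy than in the LH in 5 of 5 (mean log2 difference 0.69, adjusted p = 0.125), in the NAc than in the Amy in 5 of 6 (mean log2 difference 0.40, adjusted p = 0.125), in the LCtx than in the NAc in 6 of 6 (mean log2 difference 0.92, adjusted p = 0.125) and in the DS than in the LCtx in 5 of 7 (mean log2 difference 0.085, adjusted p = 0.719). These are exact two-sided sign-flip tests, added after the levels had been seen, and the smallest unadjusted p that 5 or 6 animals allow is 0.0625 or 0.0312. Of these naive groups, the Amy and LH alone shared a sequencing run, so structure and run cannot be told apart in the other steps.

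In the 0 hr mice of the repeated experience the LCtx came first, at 142 and 92.3 CPM, and the DS second. These DS values were 61.3 and 94.2 CPM in the first cohort and 65.3 and 105 CPM in the second. The NAc held 62.4 and 68.2 CPM, the Amy 50.8 and 47.8 CPM and the LH 29.7 and 37.9 CPM. In abstinent mice the DS led again with 129, 251 and 86.1 CPM, over 109 and 155 CPM in the LCtx. The NAc held 54.6 and 81.8 CPM, the Amy 68.0, 77.1 and 54.9 CPM and the single LH mouse 36.1 CPM. In all 3 experiences the LH came last and the Amy next to last by mean level. No step between neighbours passed the test in the repeated or abstinent mice. The nearest to it was LCtx over NAc in abstinent mice, at 0.99 [SE 0.40, 95% interval 0.20 to 1.78, adjusted p = 0.0581].

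**Figure D1:**
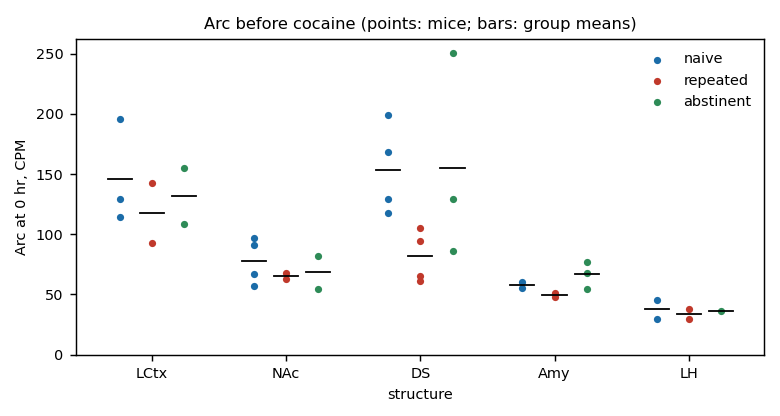
Arc before cocaine, as CPM on the y axis for each structure on the x axis; points are 0 hr mice (blue naive, red repeated, green abstinent) and black bars are group means. The DS of the repeated mice, mean 81.5 CPM, lies below that of the naive mice, mean 153 CPM, and no LH mouse exceeds 45.7 CPM.

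The DS gave the largest response. After the first dose, Arc rose from 153 ± 37.2 CPM (SD, n = 4) to 659 ± 131 CPM (SD, n = 4) at 1 hr, with 624, 512.5, 672 and 828 CPM in the 4 mice. It was back at 65.6, 227, 94.0 and 179 CPM at 2 hr and 109, 132, 101 and 89.7 CPM at 4 hr. Every 1 hr mouse lay far above every 0 hr mouse, and at 2 hr the mice straddled the 0 hr range. The log2 difference at 1 hr was 2.16 [SE 0.28, 95% interval 1.59 to 2.73, adjusted p = 2.26e-07], the 12th largest rise of 12918 genes tested, and 0.697% of genes were called up.

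After the fifth dose Arc rose from 81.5 ± 21.5 CPM (SD, n = 4) to 425 ± 41.7 CPM (SD, n = 4), with 433 and 367 CPM at 1 hr in the first cohort and 468 and 430.1 CPM in the second. The 2 hr mice held 61.5, 112 and 149 CPM and 129.7 and 64.3 CPM in the same order of cohorts. At 4 hr the values were 121 and 60.5 CPM and 52.4 and 57.5 CPM. Both cohorts showed the rise at 1 hr with no overlap with their own 0 hr mice. On the log2 scale this was 2.37 [SE 0.29, 95% interval 1.78 to 2.96, adjusted p = 6.88e-08], where 0.24% of genes were called up.

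After the challenge dose Arc rose from 155 ± 85.4 CPM (SD, n = 3) to 491 ± 129 CPM (SD, n = 4), with 415, 675, 481 and 392.1 CPM in the 4 mice at 1 hr. The 2 hr mice held 169.7, 105, 283 and 143 CPM and the 4 hr mice 157, 112, 195 and 73.1 CPM. All 1 hr mice exceeded all 0 hr mice, of which the highest was at 251 CPM. The difference came to 1.67 [SE 0.30, 95% interval 1.07 to 2.28, adjusted p = 0.000558] on the log2 scale, where 0.348% of genes were called up. Over the 3 experiences, the 12 mice at 1 hr ranged from 367 to 828 CPM and the 36 mice at other times from 52.4 to 283 CPM, without overlap. Summed cortical markers in the DS libraries stayed at 148 to 226 CPM, with 176 to 216 CPM at 0 hr and 165 to 179 CPM at 1 hr in the acute mice. Markers of other cells moved with time in some DS groups: the summed choroid plexus list was at 71.9 to 214 CPM in acute mice at 0 hr and 62.6 to 85.9 CPM at 1 hr, and the summed blood list at 599 to 725 CPM in challenge mice at 0 hr and 611 to 1307 CPM at 1 hr. Their part in the result was not tested.

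**Figure D2:**
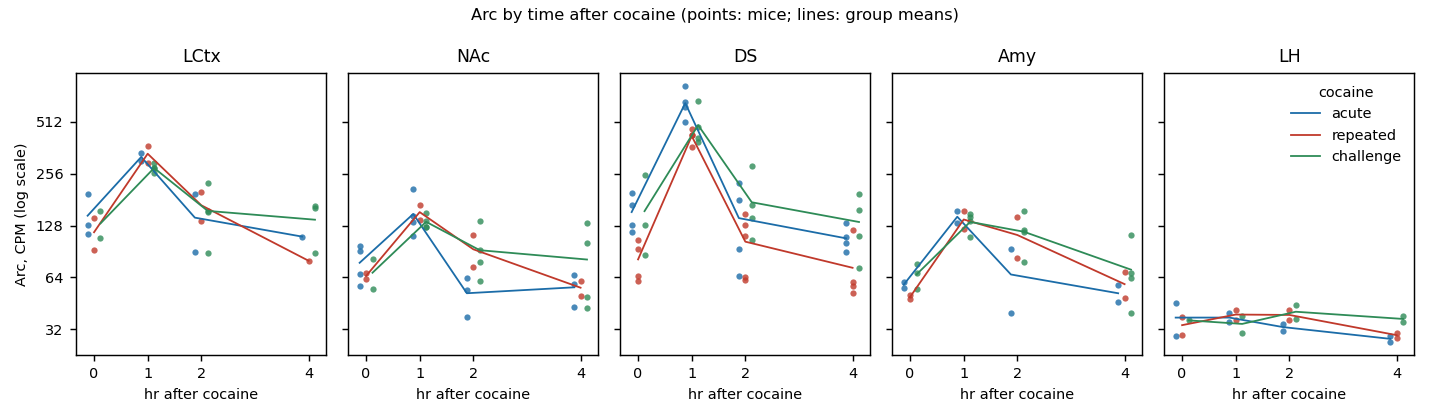
Arc in CPM (y axis, log scale) against hours after cocaine (x axis) for each structure, with colours for the acute, repeated and challenge experiences; points are mice and lines join group means. The 1 hr peak stands out in the LCtx, NAc, DS and Amy, reaches 828 CPM in the DS, and is not seen in the LH, where all 23 libraries lie between 27.1 and 45.7 CPM.

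In the LCtx Arc rose from a starting level like that of the DS to a lower peak. Acute mice held 196, 114 and 129 CPM at 0 hr and 305 and 337 CPM at 1 hr. Their 2 hr values were 195 and 89.5 CPM and the 1 mouse at 4 hr had 111 CPM. The 1 hr mice lay above the 0 hr mice, while 1 of the 2 hr mice was within the 0 hr range and 1 below it. As a log2 difference the 1 hr rise was 1.10 [SE 0.24, 95% interval 0.62 to 1.58, adjusted p = 0.018], against 0.327% of genes called up. The 1 hr library with the higher Arc value (replicate 2) stood apart in its markers: its cortical sum was 1363 CPM against 2255 to 2440.1 CPM at 0 hr, its striatal sum 915 against 319.7 to 423 CPM and its oligodendrocyte sum 3965 against 1601 to 1984 CPM. The other 1 hr library, with a cortical sum of 2264 CPM, also lay above all 0 hr mice in Arc. The call was lost without replicate 2, at 0.90 (adjusted p = 0.769) with 1 mouse left at 1 hr and its spread taken from the other groups, without replicate 3, at 1.02 (adjusted p = 0.0911), with DESeq2 (adjusted p = 0.275) and with the acute mice fitted alone (adjusted p = 0.148).

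Repeated mice held 142 and 92.3 CPM in the LCtx at 0 hr and 297 and 373 CPM at 1 hr. At 2 hr they held 201 and 135 CPM, and the 4 hr mouse 80.1 CPM. This rise of 1.52 [SE 0.27, 95% interval 0.96 to 2.07, adjusted p = 0.00858] in log2 units was called, where 0.0521% of genes were, and was not called without replicate 2, at 1.06 (adjusted p = 0.548) with 1 mouse left at each time, or with DESeq2 (adjusted p = 0.312). Marker lists moved with this repeated rise, without overlap between 0 and 1 hr. The striatal list went down, at 739 to 850 against 687 to 729 CPM, and so did the cortical list, at 2026 to 2034 against 1952 to 1961 CPM. Their part in the rise was not tested. Challenge mice held 109 and 155 CPM at 0 hr and 295, 259.6, 277 and 275 CPM at 1 hr. Their 2 hr values were 153, 89.4, 226 and 155 CPM and their 4 hr values 161, 165 and 89.0 CPM. All 4 challenge mice at 1 hr exceeded the 0 hr mice, but the log2 difference of 1.09 [SE 0.25, 95% interval 0.58 to 1.59, adjusted p = 0.138] was not called, in a comparison where 0.0297% of genes were. Without replicate 2 it was, at 1.40 (adjusted p = 0.0147), as it was with the run as a covariate (adjusted p = 0.0439). The summed blood list was at 519.6 to 729 CPM in these mice at 0 hr and 514 to 1226 CPM at 1 hr, and its part in the result was not tested. Over the 3 experiences the LCtx mice at 1 hr ranged from 259.6 to 373 CPM, and the 20 at other times from 80.1 to 226 CPM, without overlap.

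In the NAc the peak was lower still. Acute mice went from 91.2, 97.0, 56.8 and 66.6 CPM at 0 hr to 134, 111, 146 and 208 CPM at 1 hr. They stood at 37.9, 54.2 and 63.4 CPM at 2 hr and 43.0, 58.8 and 66.5 CPM at 4 hr. All 4 mice at 1 hr were above the 0 hr mice, and 2 of 3 at 2 hr and 1 of 3 at 4 hr were below all of them. The 1 hr log2 difference was 0.94 [SE 0.22, 95% interval 0.50 to 1.38, adjusted p = 0.0733] and was not called, against 0.1% of genes called up. It was called without replicate 2, at 1.18 (adjusted p = 0.0361), with the run as a covariate (adjusted p = 0.0397) and with the acute mice fitted alone (adjusted p = 0.000883). With each replicate number left out in turn the difference ran from 0.67 to 1.18, the lowest without replicate 4 (adjusted p = 1), and with DESeq2 the adjusted p was 0.752.

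Repeated mice held 62.4 and 68.2 CPM in the NAc at 0 hr, 138 and 169 CPM at 1 hr, 113 and 73.9 CPM at 2 hr and 50.2 and 61.4 CPM at 4 hr. Challenge mice held 54.6 and 81.8 CPM at 0 hr and 136, 125, 126 and 152 CPM at 1 hr. They then held 79.0, 61.0, 136 and 92.6 CPM at 2 hr and 101, 49.0, 133 and 42.7 CPM at 4 hr. Again every 1 hr mouse lay above every 0 hr mouse, and in the repeated experience both 2 hr mice did too. The 1 hr log2 differences were 1.23 [SE 0.31, 95% interval 0.61 to 1.86, adjusted p = 0.28] after the fifth dose and 1.05 [SE 0.27, 95% interval 0.49 to 1.597, adjusted p = 0.152] after challenge. Neither was called, in comparisons where 0.054% and 0.0617% of genes were called up. Blood transcripts moved with time in the challenge NAc, at 346 to 444 CPM for the summed list at 0 hr and 460.2 to 1405 CPM at 1 hr. In the run of the 0 hr mice they were at 460.2 and 513 CPM at 1 hr, and in the other run at 605 and 1405 CPM. The summed choroid plexus list went with the run: it was at 31.0 and 33.1 CPM at 0 hr and 28.9 and 29.9 CPM at 1 hr in the same run, and at 131 and 151 CPM at 1 hr in the other. With the run as a covariate the challenge difference was 1.08 (adjusted p = 0.169), and the part of blood was not tested. Of the 4 challenge mice at 1 hr, the 2 in the run of the 0 hr mice held 126 and 136 CPM, also above them. With the repeated mice fitted alone the adjusted p was 0.000196, and that difference was called. With each replicate number left out in turn the differences ran from 1.14 to 1.31 after the fifth dose and from 0.75 to 1.39 after challenge, and neither was called (lowest adjusted p = 0.0522 and 0.058).

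In the Amy acute mice went from 60.7 and 55.5 CPM at 0 hr to 133 and 156 CPM at 1 hr. They held 93.2 and 40.0 CPM at 2 hr and 46.0 and 57.6 CPM at 4 hr. The 1 hr difference of 1.31 [SE 0.28, 95% interval 0.75 to 1.87, adjusted p = 0.0968] was not called, where 0.0155% of genes were. It was called without replicate 3, at 1.31 (adjusted p = 0.00246), without replicate 4, at 1.31 (adjusted p = 0.033), and with the acute mice fitted alone (adjusted p = 0.00135). Repeated mice held 50.8 and 47.8 CPM at 0 hr and 155 and 123 CPM at 1 hr. At 2 hr they held 143 and 82.6 CPM and at 4 hr 48.4 and 68.7 CPM. Both the 1 hr and the 2 hr mice lay above the 0 hr mice, and the 1 hr log2 difference of 1.49 [SE 0.29, 95% interval 0.92 to 2.07, adjusted p = 0.0186] was called, against 0.0233% of genes. The call was lost with DESeq2 (adjusted p = 0.288). It was also lost without replicate 1, at 1.37 (adjusted p = 1), and without replicate 2, at 1.61 (adjusted p = 0.243), where 1 mouse is left at each time and is assumed to vary like the mice of other groups. Several marker lists moved with these rises, without overlap between 0 and 1 hr. In acute mice the striatal list went up, at 1565 to 1875 CPM against 1971 to 2026 CPM, and in repeated mice the cortical list, at 1232 to 1385 against 1497 to 1498 CPM. In repeated mice the endothelial list went down, at 216 to 255.5 against 151 to 175 CPM. Their part in the results was not tested.

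Challenge mice in the Amy held 68.0, 77.1 and 54.9 CPM at 0 hr and 149, 110.0, 144 and 136 CPM at 1 hr. At 2 hr they held 117, 78.3, 155 and 121 CPM and at 4 hr 67.8, 63.7, 113 and 39.8 CPM. All 4 mice at 1 hr and all 4 at 2 hr exceeded the 0 hr mice. The 1 hr log2 difference was 1.04 [SE 0.21, 95% interval 0.61 to 1.46, adjusted p = 0.0174] and was called, where 0.0931% of genes were. That call was lost without replicate 1, at 1.00 (adjusted p = 0.788), without replicate 3, at 0.86 (adjusted p = 0.248), and with DESeq2 (adjusted p = 0.557). The summed hypothalamic list varied more at 1 hr, at 746 to 1579.8 CPM against 1139 to 1229.9 CPM at 0 hr, and its part was not tested. At 2 hr the difference was 0.85 [SE 0.21, 95% interval 0.42 to 1.28, adjusted p = 0.162] and was not called. Over the 3 experiences the Amy mice at 1 hr ranged from 110.0 to 156 CPM and those at other times from 39.8 to 155 CPM, so these ranges overlapped, as did the 111 to 208 CPM and 37.9 to 136 CPM of the NAc.

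Pooling the 3 experiences, with mice permuted only within an experience, gave 1 exact test per structure and time for the log2(CPM + 1) level, adjusted over 25 tests. The log2 difference between 1 and 0 hr was 2.10 (exact permutation p = 5.83e-06, adjusted p = 4.86e-05) in the DS and 1.24 (exact permutation p = 0.00111, adjusted p = 0.00309) in the LCtx. It was 1.01 (exact permutation p = 0.000159, adjusted p = 0.000992) in the NAc and 1.21 (exact permutation p = 0.000794, adjusted p = 0.00248) in the Amy. In each of these 4 structures, the 1 hr mice lay above the 0 hr mice of the same experience without exception, so these p-values are the smallest that the arrangements allow. The tests were chosen after the levels had been seen. The adjusted p rose to 0.108 and 0.0868 in the LCtx and to 0.0781 and 0.0568 in the Amy without replicates 1 and 2, with log2 differences from 1.14 to 1.35.

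**Figure D3:**
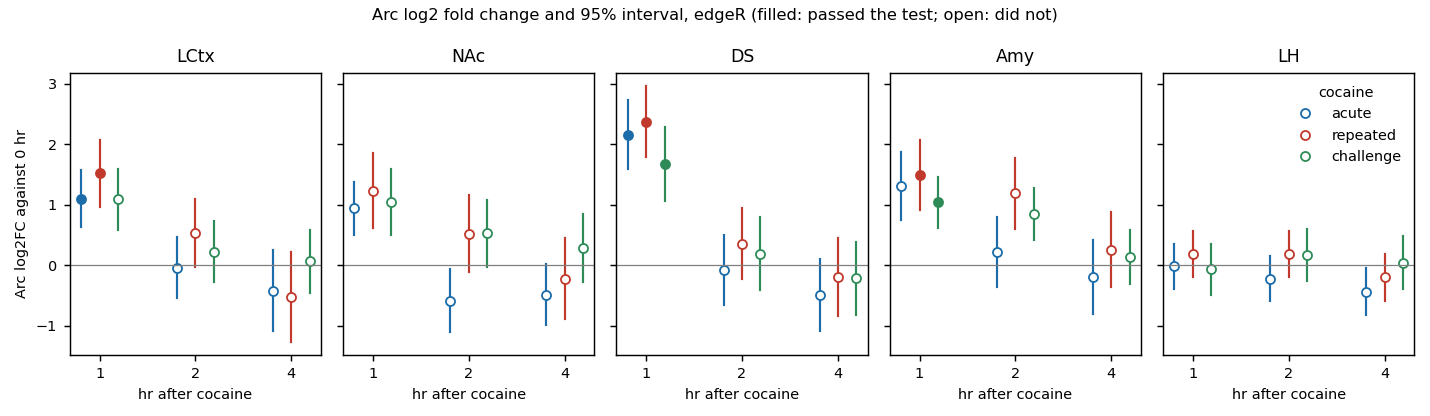
log2 difference of Arc from the 0 hr mice of the same experience (y axis), from edgeR, at 1, 2 and 4 hr in each structure and experience; points are estimates, filled where the test was passed, and bars are 95% intervals. In the 4 structures other than the LH the highest estimate of each experience is at 1 hr, from 0.94 to 2.37, and the 3 LH estimates at 1 hr lie between -0.07 and 0.19.

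No rise of Arc at 1 hr was detectable in the LH. Acute LH mice held 45.7 and 29.2 CPM at 0 hr, 39.6 and 35.3 CPM at 1 hr, 34.6 and 31.4 CPM at 2 hr and 27.1 and 29.2 CPM at 4 hr. Repeated mice held 29.7 and 37.9 CPM, then 41.6 and 36.4 CPM, 41.4 and 36.1 CPM and 30.6 and 28.6 CPM. Challenge mice held 36.1 CPM in the 1 mouse at 0 hr, then 38.3 and 30.5 CPM, 44.1 and 36.8 CPM and 35.2 and 38.3 CPM. The groups overlapped at 1 hr in every experience. The log2 differences at 1 hr were -0.02 (95% interval -0.39 to 0.35), 0.19 (-0.19 to 0.57) and -0.07 (-0.49 to 0.35) in the acute, repeated and challenge mice. None was called, by edgeR or by DESeq2, and the unadjusted edgeR p-values were 0.913, 0.318 and 0.739. In the same comparisons 0.068%, 0.0302% and 0.0% of genes were called up. Every upper bound lay below every estimate in the other 4 structures. Pooled over experiences the difference was 0.07 (exact permutation p = 0.602, adjusted p = 0.752). Marker lists moved between 0 and 1 hr in the LH without overlap. Acute mice went from 661 to 743 down to 628 to 638 CPM in the striatal list. Their blood list went from 503 to 511 down to 443 to 451 CPM. In repeated mice the striatal list went up, at 535 to 625 against 692 to 694 CPM, and the neuron list, at 3900 to 4086 against 4141 to 4262 CPM. The choroid plexus list fell in acute and rose in repeated mice. Their part in the LH results was not tested.

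Some other immediate-early genes, among them Fos and Junb, were higher at 1 hr in these same LH libraries. Fos, a transcription factor of the AP-1 family and the usual marker of neuronal activation, stood at 7.83 and 9.18 CPM in acute mice at 0 hr and at 27.4 and 36.0 CPM at 1 hr. In repeated mice it went from 4.17 and 5.95 to 22.6 and 26.7 CPM, and in challenge mice from 23.1 CPM in 1 mouse to 31.3 and 65.7 CPM. Junb, a partner of Fos in AP-1, went from 40.9 and 41.8 to 66.5 and 73.8 CPM in acute mice and from 31.2 and 39.1 to 63.0 and 79.2 CPM in repeated mice. In every experience the 1 hr LH mice were above the 0 hr mice for both genes. The nuclear receptor Nr4a1 went from 13.5 and 22.2 to 21.6 and 33.8 CPM in acute mice, where the groups overlapped. It went from 10.02 and 11.25 to 31.1 and 32.6 CPM in repeated mice, and from 24.5 CPM in 1 mouse to 30.9 and 32.8 CPM in challenge mice. Taken as differences from Arc within each library, the 1 hr change exceeded that of Arc by 0.79 log2 units for Junb and 0.81 for Nr4a1 (exact permutation, adjusted p = 0.0139 for both), and by 1.62 for Fos (adjusted p = 0.0185). These 3 genes were chosen as the nearest to Arc over all structures, LH groups included, and the tests were added after the data had been seen. Other genes near Arc changed little in acute LH mice at 1 hr. Egr4 had a log2 difference of 0.10, Gm13889 0.078, Tiparp 0.032 and Trib1 -0.18, none called. Btg2 (0.73), Dusp1 (0.65) and Per1 (0.41) were not called there either.

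By exact permutation tests added after the data had been seen, the size of the response differed between structures. Within animal numbers that carry both structures, the 1 hr log2 difference was larger in the DS than in the NAc by 1.18 (adjusted p = 0.000794), than in the Amy by 0.76 (adjusted p = 0.0139) and than in the LCtx by 0.72 (adjusted p = 0.0139). It was larger than in the LH by 1.84 (adjusted p = 0.0139) in the DS and by 1.14 (adjusted p = 0.0139) in the Amy. For LCtx minus LH the difference was 1.17 (adjusted p = 0.0617) and for NAc minus LH 0.67 (adjusted p = 0.111), neither past the threshold. The values are exact permutation tests over animals within an experience, adjusted over 10 tests, and the LCtx and LH pair allowed only 18 arrangements. Of edgeR's contrasts of this response between structures, those of the DS against the LH alone are given. In edgeR's model of all structures together, no DS against LH difference of the 1 hr response was called, at 2.197 (adjusted p = 0.0565) after the first dose, 2.19 (adjusted p = 0.275) after the fifth and 1.75 (adjusted p = 1) after challenge.

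From 1 to 2 hr Arc fell in the DS, LCtx and NAc. Of the mean 1 hr rise in CPM, the share left at 2 hr in the acute, repeated and challenge mice was -2.35%, 6.35% and 5.85% in the DS. The shares were -2.14%, 23.4% and 16.7% for the LCtx, -36.3%, 31.8% and 36.1% for the NAc and 9.92%, 70.9% and 75.6% for the Amy. A negative share is a 2 hr mean below the 0 hr mean. These shares rest on few mice. With each 2 hr mouse taken alone the share was -20.9% and 40.8% in acute and 37.1% and 105% in repeated mice of the Amy, 9.77% and 53.8% in repeated mice of the NAc, and -32.5% and 28.2% in acute and 8.32% and 38.4% in repeated mice of the LCtx. In challenge mice the lowest and highest of 4 were 17.1% and 130.2% in the Amy, -10.8% and 102% in the NAc and -29.3% and 65.2% in the LCtx, and no order of the structures was read from them. In the DS they ran from -17.4% to 37.9% over all 13 mice. From 1 to 2 hr, Arc fell by 2.01 on the log2 scale in the DS (exact permutation, adjusted p = 4.05e-05), by 1.02 in the LCtx (adjusted p = 0.00248) and by 0.96 in the NAc (adjusted p = 0.00113). In the Amy the change was -0.50 (exact permutation p = 0.0413, adjusted p = 0.0794), which did not pass. The DS change from 1 to 2 hr differed from that of the Amy by -1.33 (adjusted p = 0.00198), of the NAc by -1.14 (adjusted p = 0.00068) and of the LCtx by -1.02 (adjusted p = 0.00198). A level that returns to its start falls by as much as it rose, and the DS rise at 1 hr had exceeded that of the NAc by 1.18, so these differences are not separate from that in the rise. Whether Arc stayed up for longer in 1 structure than in another was not tested.

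Against 0 hr, the pooled 2 hr level was higher in the Amy by 0.69 (exact permutation p = 0.0183, adjusted p = 0.038). That test no longer passed without replicate 1, at 0.51 (adjusted p = 0.312), replicate 2, at 1.06 (adjusted p = 0.0568), or replicate 3, at 0.57 (adjusted p = 0.109). The 2 hr difference was 0.085 (exact permutation p = 0.724, adjusted p = 0.822) in the DS. It came to 0.18 (exact permutation p = 0.489, adjusted p = 0.643) for the LCtx and 0.0052 (exact permutation p = 0.983, adjusted p = 0.983) for the NAc. By 4 hr the Amy difference was 0.019 (exact permutation p = 0.931, adjusted p = 0.97). Between groups of a single experience, edgeR called 0 of the 30 Arc contrasts of 2 or 4 hr against 0 hr, with 4 at an unadjusted p under 0.05 and a lowest adjusted p of 0.162. DESeq2 also called 0, and edgeR without a filter on low counts called 5.

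An undershoot below the starting level was not shown. At 4 hr the DS means were 108, 72.9 and 134 CPM in the 3 experiences, each below the 0 hr mean of 153, 81.5 and 155 CPM. Of the acute DS mice at 4 hr, 3 of 4 were below every 0 hr mouse, and so were 3 of 4 repeated mice and 1 of 4 challenge mice. The pooled log2 difference was -0.29 (exact permutation p = 0.158, adjusted p = 0.264), beside -0.22 (exact permutation p = 0.358, adjusted p = 0.519) for the LCtx, -0.21 (exact permutation p = 0.374, adjusted p = 0.519) for the NAc and -0.20 (exact permutation p = 0.222, adjusted p = 0.347) for the LH. In the acute NAc the 2 hr mean of 51.8 CPM was below the 0 hr mean of 77.9 CPM, at a log2 difference of -0.59 [SE 0.26, 95% interval -1.11 to -0.066, adjusted p = 0.997]. The summed cortical list was also lower, at 187 to 491 CPM at 0 hr and 154 to 235 CPM at 2 hr, and its part in the result was not tested. These contrasts share their 0 hr mice with those at 1 hr.

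No difference in the Arc response between experiences was called in any structure: edgeR called 0 of 45 such contrasts, 4 had an unadjusted p under 0.05, DESeq2 called 0, and edgeR without a filter on low counts called 4. In the NAc, the 2 hr response of repeated minus acute mice was 1.11 (95% interval 0.28 to 1.93, edgeR adjusted p = 1) and that of challenge minus acute mice 1.11 (95% interval 0.35 to 1.87, edgeR adjusted p = 0.43). In the Amy, repeated minus acute at 2 hr was 0.97 (95% interval 0.14 to 1.80, edgeR adjusted p = 0.995). After the first dose no NAc mouse at 2 hr lay above the 0 hr mice, and after the fifth both did. Acute and repeated mice of the NAc were sequenced in separate runs, each with its own 0 hr mice. The challenge NAc came from 2 other runs, and the 0 hr mice from 1 of them alone. At 2 hr the 2 challenge mice in the run of the 0 hr mice held 92.6 and 136 CPM, above them, and the 2 in the other run 61.0 and 79.0 CPM, within their range. Cortical markers moved with these NAc contrasts. The summed list was at 187 to 491 CPM at 0 hr and 154 to 235 CPM at 2 hr in acute mice. It was at 344 to 516 CPM at 0 hr and 336 to 379 CPM at 2 hr in repeated mice, and at 367 to 459.7 CPM at 0 hr and 398 to 796 CPM at 2 hr in challenge mice. Arc stood higher in the LCtx than in the NAc, and the part of cortical tissue in these differences was not tested.

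For the DS, 24 libraries of 1 run, 2 mice per group, held all 3 experiences, so that levels could be compared between them. At 0 hr these libraries held 120.4 and 137 CPM in naive, 60.3 and 91.8 CPM in repeated and 91.6 and 230.1 CPM in abstinent mice. At 1 hr they held 562 and 686 CPM in acute, 336 and 378 CPM in repeated and 402 and 559.5 CPM in challenge mice. The repeated mice were below the acute mice at both times without overlap, and the challenge mice at 1 hr were in between. The 0 hr log2 difference, repeated minus naive, was -0.75 [SE 0.31, 95% interval -1.37 to -0.13, adjusted p = 0.264], and was not called, where 0.838% of genes were called lower. Abstinent minus naive was 0.32 [SE 0.30, 95% interval -0.27 to 0.91, adjusted p = 0.691] and abstinent minus repeated 1.07 [SE 0.32, 95% interval 0.43 to 1.70, adjusted p = 0.0816], neither called. The 1 hr response differed by -0.05 [SE 0.41, 95% interval -0.87 to 0.77, adjusted p = 1] between repeated and acute mice. Between challenge and acute mice it differed by -0.69 [SE 0.39, 95% interval -1.47 to 0.094, adjusted p = 0.995]. With 2 mice per group, the 0 hr calls changed when single replicate numbers were left out. Without replicate 1, repeated minus naive at -0.76 (adjusted p = 0.0296), abstinent minus naive at 0.85 (adjusted p = 0.0359) and abstinent minus repeated at 1.61 (adjusted p = 0.000137) were called. Without replicate 2, abstinent minus naive was -0.48 (adjusted p = 0.58) and abstinent minus repeated 0.28 (adjusted p = 0.799). Abstinent minus repeated was also called without replicate 4, at 1.42 (adjusted p = 0.018).

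In the larger set of DS libraries the repeated mice were lower than naive mice at 0 hr by a log2 difference of -0.95 [SE 0.31, 95% interval -1.56 to -0.33, adjusted p = 0.0119], which was called. Without replicate 3 it was -0.78 (adjusted p = 0.0559) and was not. There 17.3% of genes were called lower, and the naive and the repeated mice came from different runs, so run and experience cannot be told apart. For the 28 samples sequenced in 2 runs, the Arc CPM of the second library was 0.660 to 1.14 of the first, with a median of 0.898. The median was 0.821 in the acute DS mice and 0.949 in the repeated DS mice.

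Animals that were high in Arc in 1 structure tended to be high in others. These libraries came from 48 animal numbers, of which 38 occurred in 2 or more structures, and the labels do not state that a number shared by structures is the same mouse. For each library the deviation of log2(CPM + 1) from its group mean was taken. These deviations correlated between the LCtx and NAc (r = 0.83, rho = 0.85, adjusted p = 0.0001 for r and 0.0001 for rho, n = 25), the LCtx and DS (r = 0.69, rho = 0.58, adjusted p = 0.000375 for r and 0.0064 for rho, n = 26) and the DS and Amy (r = 0.68, rho = 0.56, adjusted p = 0.0002 for r and 0.00447 for rho, n = 31). They also did between the NAc and DS (r = 0.60, rho = 0.52, adjusted p = 0.000375 for r and 0.00447 for rho, n = 36). For the LCtx and Amy (r = 0.60, rho = 0.48, adjusted p = 0.0103 for r and 0.0662 for rho, n = 20) and the NAc and Amy (r = 0.47, rho = 0.33, adjusted p = 0.0175 for r and 0.113 for rho, n = 29), r passed and rho did not. With the 2 animals farthest from the median left out, r was 0.79, 0.66, 0.64, 0.63, 0.47 and 0.57 in the order given. The tests permuted animals over all groups, 100000 times, with adjustment over 10 pairs, and the unadjusted p for the LCtx and NAc was the smallest they can give. Deviations of a group sum to 0, and those of 2 mice mirror each other, so they are not independent as this permutation takes them to be. With permutation only within groups, the adjusted p was 0.0037, 0.0197, 0.012, 0.012, 0.0774 and 0.167, so the last 2 pairs did not pass. Without the challenge mice no pair passed with permutation within groups (lowest adjusted p = 0.231), and the LCtx and NAc alone passed by both r and rho. In challenge mice, the LCtx, NAc and Amy libraries of an animal came from the same run, so their deviations share the run as well as the animal. With deviations taken within group and run, and permutation within groups, the adjusted p was 0.0164, 0.107, 0.0483, 0.0404, 0.168 and 0.367 in the order given.

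Pairs with the LH gave r of -0.19, 0.13, 0.087 and 0.27 for the LCtx, NAc, DS and Amy over 13, 21, 22 and 22 animals, and the lowest adjusted p was 0.324 for r, 0.105 for rho and 0.167 with permutation within groups, all for the Amy and LH. With the 2 farthest animals left out, r was -0.088, -0.02, -0.054 and 0.36. With the DS libraries of the shared run, r for the DS and LH was 0.59 (adjusted p = 0.109) over 10 animals by permutation. As a description, the mean r of the 6 pairs outside the LH was 0.65 for Arc and 0.062 for the median of 12296 genes, and Arc ranked 12th.

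The shared deviations lay mostly at the late times. Over these 6 pairs, the 2 deviations had the same sign in 19 of 39 library pairs at 0 hr and in 26 of 48 at 1 hr, against 38 of 46 at 2 hr and 27 of 34 at 4 hr. The SD of the deviations was 0.31, 0.19, 0.46 and 0.45 log2 units at these times. The difference between times was not tested, an animal enters several pairs, and groups of 2 mice have mirrored deviations. Among challenge mice at 2 hr, animal 8 had LCtx 226, NAc 136, DS 283 and Amy 155 CPM, the highest value in each structure. Animal 11 had LCtx 89.4, NAc 61.0, DS 105 and Amy 78.3 CPM, the lowest value in each. These 2 animals came from different runs in the LCtx, NAc and Amy and from the same run in the DS. Among repeated mice at 2 hr, animal 6 of the second cohort had LCtx 201, NAc 113, DS 129.7 and Amy 143 CPM, and animal 7 had LCtx 135, NAc 73.9, DS 64.3 and Amy 82.6 CPM. The first of these was above the second in each structure.

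**Figure D4:**
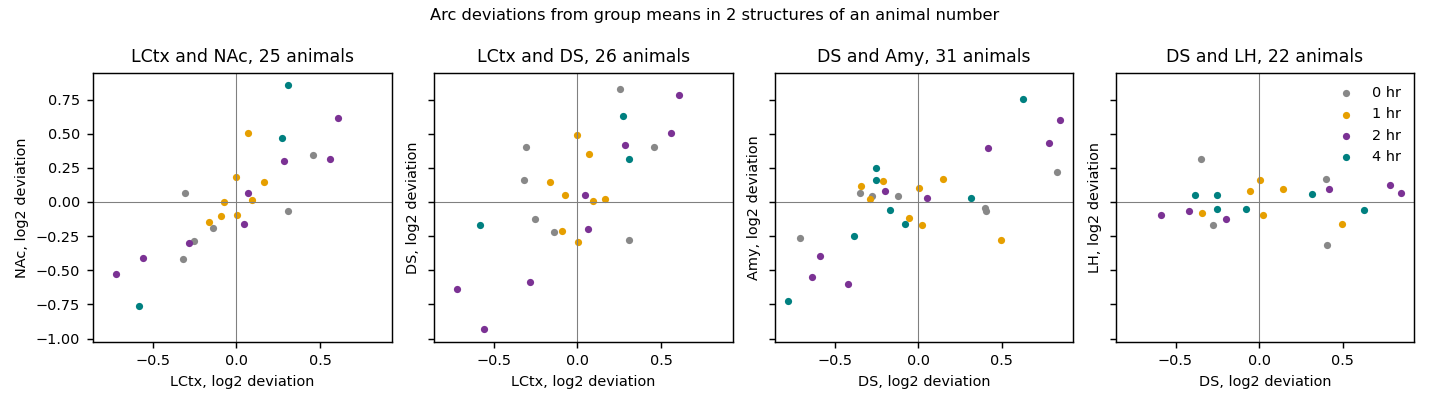
Deviation of Arc from its group mean, in log2 units, in 1 structure (x axis) against another (y axis), for 4 pairs of structures; each point is an animal number, coloured by hours after cocaine. The points rise to the right for the LCtx and NAc (r = 0.83), the LCtx and DS (0.69) and the DS and Amy (0.68), and r for the DS and LH is 0.087.

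The genes whose course over the 60 groups of structure, experience and time was most like that of Arc were other immediate-early genes. Likeness was Pearson's r of group means of log2(CPM + 1), centred within each structure and experience, over 12295 genes kept in all structures. All genes are read from the same libraries, so r is a description. Junb (0.94) came first, followed by Nr4a1 (0.91), Fos (0.90), the MAP kinase phosphatase Dusp1 (0.90) and the antiproliferative factor Btg2 (0.89). Then came the clock gene Per1 (0.86), the ADP-ribosyltransferase Tiparp (0.84), the zinc-finger factor Egr4 (0.83), the pseudokinase Trib1 (0.82) and Gm13889 (0.80). Ranked by Spearman's rho, 8 of these 10 stayed in the first 10. In the acute DS at 1 hr the log2 differences were 2.21 for Junb, 2.29 for Nr4a1, 2.11 for Fos and 1.22 for Dusp1 (edgeR, adjusted p = 3.59e-15, 3.79e-09, 0.000105 and 9.46e-07), beside 2.16 for Arc. In the acute LH, Fos and Junb were called, at 1.89 (adjusted p = 0.00948) and 0.77 (adjusted p = 0.0406), and Nr4a1 (0.60, adjusted p = 1) was not.

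**Figure D5:**
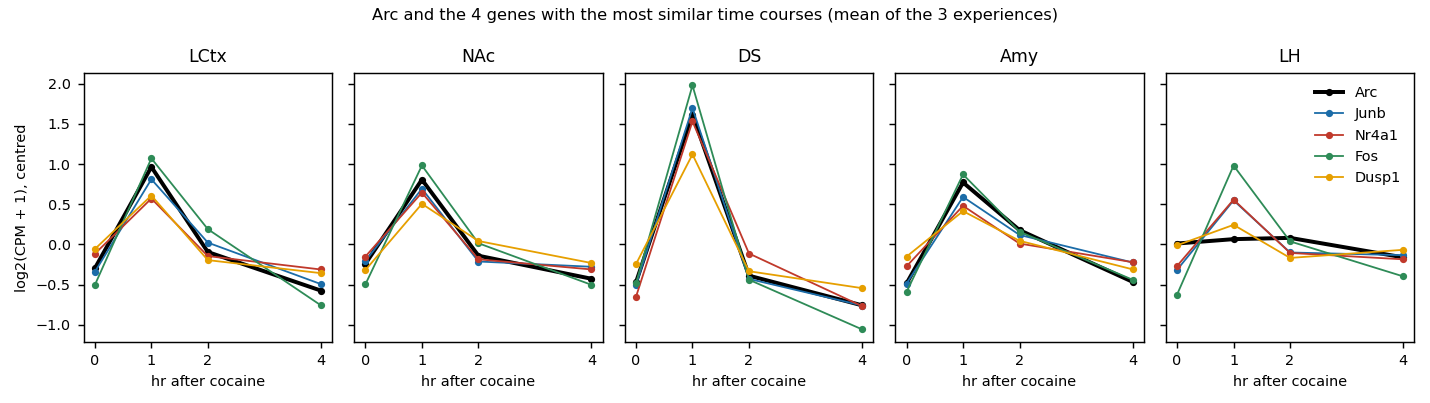
Arc (thick black line) and the 4 genes most like it, as log2(CPM + 1) centred within each structure and experience and averaged over the 3 experiences (y axis), against hours after cocaine (x axis), with 1 panel per structure. The 5 lines peak together at 1 hr in the LCtx, NAc, DS and Amy, and in the LH the line of Arc stays level while those of Fos, Junb and Nr4a1 have their peak at 1 hr.

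Because these genes move with Arc, their promoters are shown for a motif that immediate-early promoters often carry: the half-site of the cAMP response element, read here as TGACG or CGTCA on the strand printed, so that both strands are covered. The sequences are RefSeq's for GRCm38.p6, from 250 bases before to 50 after the gene's start, read 5′ to 3′ on the gene's strand, with half-sites in capitals. RefSeq's table held an entry for 8 of the 10 genes and none for Arc. The windows of the 4 genes most like Arc lie at Junb (chr8:84978699-84978998, minus strand), Nr4a1 (chr15:101266596-101266895, plus strand), Fos (chr12:85473640-85473939, plus strand) and Dusp1 (chr17:26508423-26508722, minus strand).
Junb: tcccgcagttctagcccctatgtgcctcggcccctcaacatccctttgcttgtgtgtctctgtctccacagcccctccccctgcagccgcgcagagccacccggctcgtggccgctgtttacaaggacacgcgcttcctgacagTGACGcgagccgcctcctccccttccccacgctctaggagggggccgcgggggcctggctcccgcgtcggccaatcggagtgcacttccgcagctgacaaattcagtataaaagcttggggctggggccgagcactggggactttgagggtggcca
Nr4a1: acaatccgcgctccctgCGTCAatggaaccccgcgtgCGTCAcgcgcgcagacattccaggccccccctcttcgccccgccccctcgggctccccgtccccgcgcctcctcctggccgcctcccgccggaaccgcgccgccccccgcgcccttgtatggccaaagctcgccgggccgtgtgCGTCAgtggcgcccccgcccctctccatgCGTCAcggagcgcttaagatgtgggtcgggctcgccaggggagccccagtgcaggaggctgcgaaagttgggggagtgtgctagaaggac
Fos: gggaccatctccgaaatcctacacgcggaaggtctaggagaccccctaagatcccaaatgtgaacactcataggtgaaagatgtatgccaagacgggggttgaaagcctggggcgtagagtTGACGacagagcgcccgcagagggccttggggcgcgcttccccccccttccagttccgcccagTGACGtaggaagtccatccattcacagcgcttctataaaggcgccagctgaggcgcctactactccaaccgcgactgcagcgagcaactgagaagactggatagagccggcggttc
Dusp1: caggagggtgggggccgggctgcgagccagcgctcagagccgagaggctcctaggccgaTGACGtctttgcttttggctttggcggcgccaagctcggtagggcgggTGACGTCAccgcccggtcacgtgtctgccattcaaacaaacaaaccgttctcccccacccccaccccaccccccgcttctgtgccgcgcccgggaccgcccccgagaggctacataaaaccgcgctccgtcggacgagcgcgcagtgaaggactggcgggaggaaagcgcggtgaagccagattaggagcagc

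At least 1 half-site was present in 7 of the 8 genes with an entry, and in 20.8% of all 32851 windows of the same length. The full palindrome TGACGTCA, which contains both half-sites, occurred in 1.79% of all windows, and among the 8 genes in Dusp1 and Btg2. A match is a match of letters and not a bound site, and Tiparp, without one, reached 2.25 in the acute DS.

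Other immediate-early genes rose in the DS with Arc. A list of 20 transcription factors of this class was read first. In the DS, 12, 10 and 11 of 19 tested were called up at 1 hr after acute, repeated and challenge cocaine, where 0.697%, 0.24% and 0.348% of all genes were, and 0 were called down. Their median log2 differences were 1.18, 1.64 and 1.08, beside -0.006, -0.0076 and -0.0036 for all genes. Egr2 (3.36), Fosl2 (2.60), Egr4 (2.46) and Nr4a3 (2.39) had the largest differences after the first dose. In the other structures, in the same order of experiences, the counts called up were 3, 4 and 2 of 20 for the LCtx, 10, 5 and 5 of 19 for the NAc, 1, 1 and 4 of 18 for the Amy and 2, 4 and 0 of 18 for the LH, where the 0 went with 4 at an unadjusted edgeR p under 0.05. Of all genes, 0.327%, 0.0521% and 0.0297% were called up in the LCtx, 0.1%, 0.054% and 0.0617% in the NAc, 0.0155%, 0.0233% and 0.0931% in the Amy and 0.068%, 0.0302% and 0.0% in the LH. The LH genes were Fos (1.89, adjusted p = 0.00948) and Junb (0.77, adjusted p = 0.0406) in acute mice and Fos (2.22, adjusted p = 0.011), Junb (0.97, adjusted p = 0.0105), Egr1 (1.30, adjusted p = 0.0134) and Nr4a1 (1.56, adjusted p = 0.0134) in repeated mice.

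Immediate-early genes that, like Arc, encode enzymes, secreted or synaptic proteins rather than transcription factors formed a list of 25. In the DS, 12 of 24 tested were called up and 1 down at 1 hr after the first dose, 8 up after the fifth and 7 up after challenge. The shares of all genes called up there were 0.697%, 0.24% and 0.348%, and 0.348% were called down after the first dose. After the first dose, Tiparp (2.25, adjusted p = 4.52e-13), the kinase Sik1 (1.86, adjusted p = 0.000202) and Btg2 (1.40, adjusted p = 0.00588) rose, and the matricellular protein Cyr61 fell by 2.38 on the log2 scale (adjusted p = 0.0111). Sik1 and Cyr61 were not called after the fifth dose, at 1.14 (edgeR, adjusted p = 0.116) and 0.69 (adjusted p = 0.96). Nor were they after challenge, at 0.92 (edgeR, adjusted p = 0.285) and -0.21 (adjusted p = 0.999). The choroid plexus list was at 71.9 to 214 CPM at 0 hr and 62.6 to 85.9 CPM at 1 hr in the acute DS, and its part in the fall of Cyr61 was not tested. In the LCtx, NAc, Amy and LH the counts called up in the 3 experiences were 1, 1 and 2, 1, 2 and 1, 1, 0 and 4, and 0, 0 and 0, and those of the LH had 5, 1 and 1 genes at an unadjusted edgeR p under 0.05. The shares of all genes called up in these structures are those given for the transcription factors, at most 0.327%. One effector was called down outside the DS, Nptx2 (-0.85, adjusted p = 0.04), a secreted protein of synapses, in the acute LCtx, where 0.0149% of all genes were. One of the 2 libraries at 1 hr was that with the lower cortical and higher striatal and oligodendrocyte sums, and their part in this fall was not tested.

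Genes that act with Arc protein or upstream of it were read from 2 further lists. Over the 15 comparisons at 1 hr, in which between 0.0% and 0.697% of all genes were called up, Arc's protein partners gave 1 call up and 0 down in 330 tests, with 23 at an unadjusted edgeR p under 0.05. The call was Camk2a, the kinase subunit that binds Arc, at 0.46 (adjusted p = 0.028) in the acute DS, where the scaffold Dlg4 had 0.37, the ubiquitin ligase Rnf216 -0.24 and the receptor Notch1 -0.51. Upstream receptors, kinases and factors gave 1 call up and 0 down in 300 tests, with 19 at an unadjusted p under 0.05, and the call was the dopamine receptor Drd2 (2.30, adjusted p = 0.021) in the acute LCtx. Drd2 is abundant in the striatum, and 1 of the 2 libraries at 1 hr there had the high striatal sum given above, whose part in the call was not tested. In the acute DS the BDNF receptor Ntrk2 had -0.29, Srf 0.26, its coactivator Mkl1 -0.24 and the NMDA receptor subunit Grin2b 0.21.

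Genes of RNA transport, local translation and nonsense-mediated decay gave 0 calls in 225 edgeR tests, with 7 at an unadjusted p under 0.05. Over these 15 comparisons between 0.0% and 0.697% of all genes were called up. The 0 is near that share and is not read as a result about these genes. In the acute DS, Magoh and Eif4a3 of the exon junction complex had 0.23 and -0.18, and the translation regulator Cyfip1 had 0.21. Other genes derived from Gag gave 2 calls up and 0 down in 144 tests, with 12 at an unadjusted p under 0.05. The calls were Pnma3 (0.86, adjusted p = 0.0451) and Zcchc12 (1.08, adjusted p = 0.0127), both in the acute LCtx, where 0.327% of all genes were called up. One of its libraries at 1 hr stood apart in its markers, whose part in these calls was not tested. Pnma1, Pnmal2, Pnma3 and Pnma2 of this list had 0.63, 0.12, -0.074 and -0.066 in the acute DS.

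No rise was called in the genes on either side. Adgrb1, an adhesion receptor whose gene lies 79618 bases from Arc on the side of lower coordinates, had log2 differences of -0.21 to 0.26 at 1 hr over the 15 comparisons. Jrk, 29731 bases away on the other side, had -1.09 to 0.57, and Them6 had -0.36 to 0.13. None of these was called in any structure or experience, and Gm6569, Mroh4 and Psca were too low to be tested. Over the 60 groups their centred courses had r with that of Arc of -0.20 for Adgrb1, -0.39 for Jrk and -0.032 for Them6.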

How the data were processed

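The authors deposited 1 table of counts, whole-number UMI-deduplicated reads per gene, for 194 libraries. According to the methods, libraries were made from 100 ng of RNA from 400 µm slices, by reverse transcription with primers that carry barcodes and 8-base molecular identifiers and by tagmentation, poly(A) tails were trimmed, reads were aligned with STAR to GRCm38 and counted with HTSeq, PCR duplicates were removed by identifier, and libraries under a depth minimum were dropped. The methods also state that the deepest libraries were down-sampled, and whether the deposited counts come from before or after that step was not stated. Versions of the aligner and counter were not given in the sources used here. No normalization was applied to the counts.

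From these counts, CPM was computed on library totals. edgeR 4.0.16 in R 4.3.3 (TMM scaling, filterByExpr, quasi-likelihood F test) was fitted to 1 model per structure with a term per experience and time, on 1 library per mouse, following the study's design. Models of all structures and of the DS libraries of 1 run served comparisons of levels. DESeq2 1.42.0 and limma 3.58.1 were alternatives, beside RLE scaling, no filter, summed libraries, run, cohort and replicate-number terms, fits of single experiences and leaving out replicates. Exact permutation tests on log2(CPM + 1), pseudocount 1, were run in Python 3.11.15 with scipy 1.17.1. The edgeR step was tested on simulated counts. Libraries of a group differed beyond counting noise (lowest chi-square per degree of freedom 1.56), so none was counted as a repeat.

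Genes other than Arc were named by rule: the 10 with the highest r with Arc over group means, the 10 with the highest r over deviations, at most 4 of each list with the largest absolute log2 difference at 1 hr in the acute DS, and the 3 nearest genes on each side. One gene picked by this rule is not reported here. The single calls of a list, and the genes said to be so, were named after their values had been seen. Arc, the lists and the tests were chosen with earlier results of these data known. The permutation tests within experiences, those between structures of an animal number and those in the LH were added after the data had been seen.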

Additional observations from a re-analysis of the deposited data

Results flagged for a closer look

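In the DS of the repeated mice at 4 hr, 1 mouse of the first cohort held 121 CPM of Arc, with the other 3 at 52.4, 57.5 and 60.5 CPM, a gap large enough for Dixon's test. It was 1 of 21 groups tested, and chance flags about 1 in 20 groups.

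The Arc response differed between structures by exact permutation over animal numbers, in tests added after the data had been seen. In edgeR's model of all structures, no DS against LH difference of the 1 hr response was called. The 1 hr log2 difference was larger in the DS than in the LCtx by 0.72, than in the NAc by 1.18, than in the Amy by 0.76 and than in the LH by 1.84. It was larger in the Amy than in the LH by 1.14. From 1 to 2 hr, the change in the DS minus that in the LCtx was -1.02, minus that in the NAc -1.14 and minus that in the Amy -1.33. These are differences of differences on the log2(CPM + 1) scale and depend on each structure's own 0 or 1 hr mice. A fall from a higher peak follows in part from a larger rise, so the 1 to 2 hr differences are not separate from those at 1 hr.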

How the results depend on the processing

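Over 464 recomputed values of Arc, 453 kept the direction and 389 kept the direction and the side of the threshold too. The 1 hr rise in the DS was called under every setting tried in each experience. In the LCtx, NAc and Amy the direction at 1 hr held throughout and the call depended on the setting. Values below are log2 differences with the adjusted p in parentheses, and the cause of a change was not tested. With DESeq2 the call was lost in the LCtx, acute 1.11 (0.275) and repeated 1.503 (0.312), and in the Amy, repeated 1.49 (0.288) and challenge 1.01 (0.557). With each experience fitted alone it was lost in the acute LCtx, 1.10 (0.148), and gained in the acute NAc, 0.94 (0.000883), the repeated NAc, 1.23 (0.000196), and the acute Amy, 1.31 (0.00135). Without a filter on low counts it was gained in the LCtx after challenge, 1.08 (7.43e-14), in the NAc, 0.94 (1.3e-17), 1.24 (2.02e-14) and 1.04 (4.54e-13), in the acute Amy, 1.32 (1.3e-17), and at 0 hr in the shared DS run for repeated minus naive, -0.77 (0.000174), and abstinent minus repeated, 1.06 (1.42e-08). With the run as a covariate it was gained in the LCtx after challenge, 1.08 (0.0439), the acute NAc, 0.94 (0.0397), and the acute Amy, 1.31 (0.0135).

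Leaving out each replicate number in turn changed some calls at 1 hr. The values ran from 0.90 to 1.44 (acute), 1.06 to 2.00 (repeated) and 0.79 to 1.40 (challenge) in the LCtx, from 0.67 to 1.18 in the acute NAc, and from 1.13 to 1.49, 1.37 to 1.61 and 0.86 to 1.23 in the Amy. Without replicate 2 the acute LCtx gave 0.90 (0.769) and the repeated LCtx 1.06 (0.548). For the pooled 1 hr tests the range was 1.14 to 1.35 with the LCtx and 1.17 to 1.28 with the Amy, and for the pooled 2 hr test of the Amy 0.51 to 1.06, with the threshold missed without replicates 1 or 2 in each and also without replicate 3 in the last. Small late differences turned sign (pooled ranges -0.041 to 0.50 for the LCtx, -0.10 to 0.19 for the NAc and -0.11 to 0.22 for the DS at 2 hr, and -0.12 to 0.14 for the Amy at 4 hr): the pooled 2 hr values were -0.041 (1) in the LCtx without replicate 1, -0.066, -0.10 and -0.0081 in the NAc without replicates 1, 3 and 4, and -0.11 in the DS without replicate 3, and the 4 hr values -0.028 and -0.12 in the Amy without replicates 2 and 3. The called 0 hr difference of the larger DS set became -0.78 (0.0559) without replicate 3. In the shared DS run the 0 hr values ranged over -1.19 to -0.40 (repeated minus naive), -0.48 to 0.85 (abstinent minus naive, which reversed to -0.48 (0.58) without replicate 2) and 0.28 to 1.61 (abstinent minus repeated), and the 1 hr response of repeated minus acute over -0.64 to 0.63, reversed without replicate 4. A lone mouse left in a group is assumed to vary like the mice of other groups. In the LH, leaving out a replicate number left no residual degrees of freedom and was not run.

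Replicate numbers did not pair the samples: the median correlation of deviations between samples of the same number was -4.01e-05 in the LCtx and 0.000466 in the DS. With the replicate number as a block, the acute Amy gave 1.32 (0.00355) at 1 hr and was called, as was the Amy after challenge at 2 hr, 0.88 (0.0234). In the shared DS run, where numbers and experience nearly coincide, the block gave 2.02 (0.00407) for abstinent minus naive and 2.78 (3.3e-05) for abstinent minus repeated, and changed no other call. In the larger DS set in place of the shared run, repeated minus naive was -0.95 (0.0119), abstinent minus naive turned to -0.026 (0.959), and the 1 hr response of repeated minus acute turned to 0.22 (0.996). Under these settings each correlation between structures kept its sign, but without challenge mice and with the 2 farthest animals also left out r was -0.19 for the LCtx and Amy, -0.11 for the NAc and LH and -0.068 for the DS and LH, of 7, 15 and 16 animals. By r, they no longer passed for the LCtx and DS, 0.60 (0.079), the LCtx and Amy, 0.36 (0.541), and the NAc and Amy, 0.26 (0.497), without challenge mice, nor for the LCtx and Amy and the NAc and Amy with permutation within groups, 0.60 (0.0774) and 0.47 (0.167), or deviations within group and run, 0.50 (0.066) and 0.41 (0.057), nor for the DS and Amy with the shared-run DS libraries, 0.48 (0.0998). Without challenge mice the DS and Amy and the NAc and DS passed by r but not by rho (adjusted p = 0.13 and 0.152), r for the DS and Amy was 0.28 with the 2 farthest animals left out, and no pair passed with permutation within groups (lowest adjusted p = 0.231). With deviations within group and run, and permutation within groups, the LCtx and DS did not pass either (adjusted p = 0.107).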

Other observations

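Within groups, the genes whose deviations over these libraries were most like those of Arc held other members of the immediate-early class and genes of a different kind. Nr4a1 (r = 0.79), Junb (0.72), Fos (0.61) and Egr1 (0.60) led. The endoplasmic reticulum chaperone Calr (0.58), the actin regulator Fmnl1 (0.53) and the heat shock protein Hsph1 (0.51) followed beside Dusp1 (0.52), Tiparp (0.51) and Egr4 (0.51). Calr and Hsph1 were not called at 1 hr after acute cocaine in the DS, at log2 differences of -0.13 and 0.10 (edgeR, adjusted p = 0.842 and 0.905).

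The genes that animals shared most strongly between structures included the same kinds. By the mean r over the 6 pairs outside the LH, Hsph1 came first (0.82), followed by the chaperones Hspa5 (0.79) and Calr (0.78) and the clock output gene Dbp (0.71). The haemoglobin gene Hbb-bs (0.69) and the clock genes Arntl (0.66) and Nr1d1 (0.65) were among the first 11, and Nr4a1 had 0.65. The values are descriptions over animals that enter several pairs. These genes were named after their values had been seen.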
